A study of Drosophila melanogaster with 4 samples.

Results

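The array carried 318 probes for cDNA clones from adult head libraries, out of 32162 different non-control probes. These head clone probes were chosen as every non-control probe whose target name in the scanner output is a clone identifier beginning with GH, RH or HL and is no annotated transcript (FBtr) identifier. The 318 probes covered 238 clones, with 153 probes for 124 GH clones, 140 probes for 96 RH clones and 25 probes for 18 HL clones.

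GH, RH and HL are collections of cDNA clones made from adult fly heads and read from their ends for the Drosophila gene collection. A head cDNA library holds messages of photoreceptors, neurons, glia, cuticle-forming epidermis, muscle and the fat body of the head. A clone identifier stands here for a sequenced cDNA that the design of the array does not list as an annotated transcript, so a probe for it can fall on an unusual 3' end, an unannotated RNA, a pseudogene or a known gene. A head origin says where a cDNA was first found and does not restrict the RNA to the head.

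For the microarray experiment, RNA of whole virgin females aged 5 days was hybridised in 1 colour, and the question was which messages differ in level without dSETD3. dSETD3 is CG32732, the fly counterpart of SETD3, a SET-domain protein that in mammals methylates a histidine of actin. There were 2 dSETD3 KO arrays (genotype w[1118];;CG32732-/-) and 2 control arrays (w[1118]), and no other treatment. In the KO allele a dsRED cassette stands in place of the first exon of CG32732, introduced with CRISPR-Cas9, and the KO flies come from 1 of several KO stocks. Both genotypes share the w[1118] background. The RNA is from whole flies and not from heads, so fewer cells of a type and less RNA per cell cannot be told apart. The labels name the 2 samples of a genotype as replicates and do not say that they came from separate cultures, so p-values measure the spread between these arrays.

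The arrays shared a single slide and scan day, with dSETD3 KO at positions 3 and 4 and control at positions 1 and 2, so position and genotype cannot be told apart. No spot was saturated. Over all 32162 probes, 64.7% and 63.6% were well above background (the scanner software's flag for a signal clearly over its local background) on the dSETD3 KO arrays and 66.0% and 66.8% on the control arrays. As a check of the deletion, both probes named CG32732 were not well above background on either dSETD3 KO array and were bright on both control arrays. The brighter of them had a signal of 9.87 and 4.995 in dSETD3 KO against 7810 and 7999 in control (adjusted p = 0.0022). Its fall was 875-fold when each dSETD3 KO signal was taken as no lower than the dimmest one well above background on its array. The other probe was at least 147-fold lower.

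Sequences were at hand for few of these probes, which are 60 bases long. Of 1992 probe sequences read from the study's probe list, 5 belonged to head clones. The last 30 bases are shown for the 2 of them whose clone is tied to a gene, to show how such a probe ends, with its final run of A in capitals. Both are printed 5' to 3' in the sense of the list, on chromosome 3R for Gfrl and chromosome X for CG34417 in the RefSeq assembly (Release 6).
GH26447 (Gfrl): aacccacgccagaccaccgaaaaaagAAAA
GH23906 (CG34417): tctcttttttcttccacccgctgcAAAAAA
A final run of at least 6 A was found in 2 of the 5 head clone sequences, GH23906 among them, and in 21 of the 1992 sequences read (1.05%). Such a run can belong to the tail of a message or be encoded, and which applies here was not tested.

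Detection of the head clone probes was lower in dSETD3 KO than in control. On the dSETD3 KO arrays 210 (66.0%) and 199 (62.6%) of the 318 probes were well above background. On the control arrays 218 (68.6%) and 226 (71.1%) were, so the genotypes did not overlap. Over all 32162 probes they did not overlap either, at 64.7% and 63.6% in dSETD3 KO against 66.0% and 66.8% in control. Both arrays of dSETD3 KO detected 197 head clone probes and both arrays of control 215, 194 were detected on all 4 arrays, and 88 on none. The GH probes were detected most often on 3 of the 4 arrays, at 74.5% and 71.2% in dSETD3 KO against 76.5% and 79.1% in control. RH probes were detected least, at 55.7% and 51.4% in dSETD3 KO against 59.3% and 61.4% in control. The 25 HL probes were at 72.0% on both dSETD3 KO arrays, and at 72.0% and 76.0% in control.

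Clones from other sources differed widely in how often they were seen, and the head clones lay between embryo and testis clones. The 259 embryo clone probes (RE and LD) were at 72.6% and 73.4% in dSETD3 KO against 73.7% and 75.3% in control, and the 88 probes for clones of the S2 cell line (SD) at 71.6% and 68.2% against 68.2% and 71.6%. The 151 probes for testis clones (AT), an organ that females lack, were at 33.8% and 32.5% in dSETD3 KO against 35.8% and 37.1% in control. Probes for annotated transcripts were at 77.7% and 76.9% in dSETD3 KO against 79.1% and 79.8% in control. The 85 ovary clone probes (GM) had the widest gap between the genotypes among these sets, at 72.9% on both dSETD3 KO arrays against 78.8% and 82.4% in control.

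Levels are given as log2 of the background-corrected signal minus the 75th percentile of the same array, so that 0 is the 75th percentile and a difference of 1 is 2-fold. A level of 1 probe is not set against that of another gene, since probes bind unequally. The median level of the 318 head clone probes was −5.09 and −4.90 on the dSETD3 KO arrays, against −4.54 and −4.35 on the control arrays. Over all probes the medians were −4.27 and −4.19 in dSETD3 KO against −3.98 and −3.88 in control. Both sets were lower at the median in dSETD3 KO on this scale.

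A probe was tested when both arrays of at least 1 genotype were well above background, which held for 218 head clone probes among 21093 probes in all. Of the 218, 21 passed through control alone and 3 through dSETD3 KO alone, and 194 were detected on every array. The change is the mean level of dSETD3 KO minus that of control, with limma's moderated test adjusted over all 21093 probes, and a probe is called lower or higher at an adjusted p under 0.05. Called lower were 61 head clone probes (28.0% of those tested), where 16.6% of all tested probes were. Called higher were 3, GH05251, HL05382 and 1 probe of RH05583, beside 3.76% of all tested probes. At a change of at least 2-fold as well, 19 were lower, or 8.72% against 4.09% of all tested probes, and 1 was higher, or 0.459% against 1.21%. The 19 probes belonged to 16 clones. At an unadjusted p under 0.05 with the same 2-fold limit, 21 head clone probes were lower, or 9.63% against 4.89% of all tested probes. By these limits 1 was higher, or 0.459% against 1.39% of all tested probes.

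The median change of the 218 tested probes was −0.34 on the log2 scale, with quartiles of −0.72 and 0.06, and 156 of them (71.6%) were below 0. Over all tested probes the median was 0.02 and 48.4% were below 0. Both dSETD3 KO arrays lay below both control arrays for 127 head clone probes (58.3%), where 37.2% of all tested probes did so, and above them for 36 (16.5%), where 39.4% did. Over the 194 probes detected on all 4 arrays, which the filter could not favour in either direction, the median was −0.28, and 14 (7.22%) were at least 2-fold lower and 0 at least 2-fold higher at an adjusted p under 0.05. Of all 19839 probes detected on the 4 arrays, 3.54% were lower and 0.978% higher by the same limits. The other 6 of the 20 probes past both limits, those of RH27559, GH25761, GH12056 (both), RH33996 and 1 of RH05583, passed the filter through 1 genotype alone, and their values below are a description. The arrays of 1 genotype differed by a median of 0.17 (dSETD3 KO) and 0.20 (control) on these 218 probes, against a median size of change of 0.40.

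The split between lower and higher depends on the scaling. When arrays were scaled to their median in place of their 75th percentile, the median of all tested probes moved by 0.30 to 0.32, that of the head clone probes was −0.03, and 9 head clone probes (4.13%) were at least 2-fold lower and 7 (3.21%) higher, beside 1.95% and 2.53% of all tested probes. With quantile normalization 5 (2.29%) were lower and 3 (1.38%) higher, beside 2.24% and 1.56% of all tested probes, and with cyclic loess 4 (1.83%) were lower and 3 (1.38%) higher, beside 2.25% and 1.57%. Under these 2 settings the head clone shares at 2-fold were near those of all probes. Relative to all tested probes the head clone median stayed lower under each of these, by 0.36 with the 75th percentile, 0.36 with the median, 0.23 with quantile normalization and 0.24 with cyclic loess. Without control replicate 1 or without control replicate 2, limma called 0 head clone probes at an adjusted p under 0.05, with 92 and 60 lower and 6 and 6 higher at an unadjusted p under 0.05. It called 0 of all 21093 probes too, with 5157 and 3797 lower and 2024 and 1020 higher at an unadjusted p under 0.05, so the loss was not particular to head clones.

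All 3 head libraries had a median change below 0. It was −0.34 for 117 tested GH probes, with 35 called lower and 1 higher, −0.31 for 83 RH probes, with 20 lower and 1 higher, and −0.44 for 18 HL probes, with 6 lower and 1 higher. At least 2-fold lower were 12 GH, 7 RH and 0 HL probes, beside 4.09% of all tested probes. With 18 HL probes tested, a count of 0 does not set HL apart. Called lower were 16.6% of all tested probes, and called higher 3.76%. Clones from other sources differed among themselves. The median change was 0.07 for 194 embryo clone probes, −0.02 for 62 S2 cell clone probes, −0.27 for 66 ovary clone probes and −0.27 for 53 testis clone probes, and it was 0.04 for 17144 probes of annotated transcripts. Called lower were 15.98% of the embryo, 11.3% of the S2 cell, 24.2% of the ovary, 17.0% of the testis and 17.2% of the annotated transcript probes. The median of the ovary and testis clones was also below 0, and these sets were not tested against the head clones.

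The head clone probes were dim, and the median change of dim probes was below 0 among head clones and other probes alike. The median level of the tested head clone probes over the 4 arrays was −3.16, against −1.11 for all tested probes. When all tested probes were cut into 4 equal bins by mean level, 88 head clone probes fell in the dimmest bin, 62 in bin 2, 30 in bin 3 and 38 in the brightest. In the dimmest bin the median change was −0.56 for head clones against −0.34 for all other probes, in bin 2 it was −0.40 against −0.22, and in bin 3 −0.24 against 0.12. In the brightest bin it was 0.08 for head clones against 0.15 for the others. Head clones thus lay below the other probes in all 4 bins. Called lower were 29.5%, 37.1% and 33.3% of the head clone probes in the 3 dimmer bins, beside 22.04%, 26.8% and 11.7% of the others. In the brightest bin the shares were 5.26% of head clones and 5.33% of the others. The part of brightness in the lower values of the head clones was not tested beyond this split.

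The head clone with the largest fall that was measured on all arrays was RH61147, whose identifier is a synonym of Acp65Aa, an adult cuticle protein. Its level was −3.68 and −3.43 on the dSETD3 KO arrays, against −1.03 and −1.01 on the control arrays. It fell 5.80-fold (log2 change −2.54 ± 0.12, SE, adjusted p = 0.0068), and the gap between the genotypes was far wider than that between the arrays of either. A separate probe for Acp65Aa, which is no head clone probe and has a name in the files because the study listed it as changed, had a log2 change of −2.44 (adjusted p = 0.0050).

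A further cuticle gene among the clones was obst-B (GH02976), which codes for a chitin-binding protein of the cuticle. Its level was −1.04 and −0.99 in dSETD3 KO, against 0.18 and 0.47 in control, 2.53-fold lower (log2 change −1.34 ± 0.13, SE, adjusted p = 0.017). The third cuticle gene with a head clone, Cpr60D (RH24125), named for a chitin-binding motif of cuticle proteins, had a log2 change of −0.19 ± 0.08 (SE, adjusted p = 0.15). Its dSETD3 KO arrays lay below both control arrays, as for 37.2% of all tested probes, and the change was not called.

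RH27559 was measured on 1 of the 2 dSETD3 KO arrays and passed the filter through control alone, and its dSETD3 KO arrays differed widely from each other. The level was −6.27 and −8.79 in dSETD3 KO, the lower of these not well above background, against −2.97 and −2.90 in control. The log2 change was −4.60 ± 0.87 (SE, adjusted p = 0.036), and it ranged from −5.86 to −1.62 over 14 other settings, with an adjusted p under 0.05 in 6 of them. No gene is paired with this clone in the RefSeq table.

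Among clones of ion channel genes was Sh (GH03046), which codes for the Shaker voltage-gated potassium channel. Sh was at −5.03 and −5.42 in dSETD3 KO, against −3.98 and −3.67 in control. It was 2.63-fold lower (log2 change −1.40 ± 0.19, SE, adjusted p = 0.022). The change of Sh was −0.43 with normexp background correction and was no longer called (adjusted p = 0.078). nAChRalpha6 (GH01410), a subunit of the nicotinic acetylcholine receptor, was also lower, with a log2 change of −0.65 ± 0.13 (SE, adjusted p = 0.039). Trpm (GH04950), a cation channel, had a log2 change of −0.28 (adjusted p = 0.16), and 6 other probes named Trpm lay between −0.03 and 0.15, none of them called. pHCl-1 (GH21757), a ligand-gated chloride channel, was not well above background on any array. Clones of these 4 genes held 2 called lower, 1 not called and 1 without detection, beside 16.6% of all tested probes called lower.

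GH05710, a synonym of atos (atossa), had 3 probes that did not act alike. Probe A_09_P160190 was at −5.66 and −4.59 in dSETD3 KO, against −3.30 and −3.32 in control, and A_09_P179520 was at −5.48 and −4.38 in dSETD3 KO, against −3.15 and −3.17 in control. Both were lower, by −1.82 ± 0.38 and −1.76 ± 0.39 on the log2 scale (SE, adjusted p = 0.043 and 0.047). The third probe, A_09_P206535, was at −6.27 and −5.40 in dSETD3 KO, against −5.64 and −5.48 in control, with overlapping genotypes (adjusted p = 0.53). A probe for an annotated transcript of atos had a log2 change of 0.14 (adjusted p = 0.44). The 2 lower probes had an adjusted p under 0.05 in 6 and 5 of 15 other settings, and missed it with quantile normalization, cyclic loess and normexp.

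RH38463, a synonym of CG12483, was at −4.20 and −3.72 in dSETD3 KO, against −2.88 and −2.32 in control (log2 change −1.36 ± 0.27, SE, adjusted p = 0.039). Its change ranged from −1.64 to −0.89 over 15 other settings and missed an adjusted p under 0.05 in some. Both probes of GH16612, a clone with no gene name here, were lower, A_09_P031056 by −1.18 ± 0.25 and A_09_P215265 by −1.06 ± 0.15 on the log2 scale (SE, adjusted p = 0.043 and 0.023). Over 15 other settings they ranged from −1.47 to −0.76 and from −1.19 to −0.76, and both missed an adjusted p under 0.05 in some. GH25761 was at −6.06 and −6.96 in dSETD3 KO, the lower value not well above background, against −5.14 and −4.86 in control (log2 change −1.51 ± 0.34, SE, adjusted p = 0.049). GH25761 passed the filter through control alone, and its change ranged from −1.96 to −0.39 over 14 other settings, with an adjusted p under 0.05 in 6. In all of these both dSETD3 KO arrays lay below both control arrays, as they did for 37.2% of all tested probes.

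The remaining probes past both limits, which are given here although a rule for naming probes did not cover them all, had smaller changes. Hsc70-1 (RH49358), a gene of the Hsp70 chaperone family, was at 0.07 and 0.20 in dSETD3 KO, against 1.04 and 1.28 in control, 2.04-fold lower (log2 change −1.03 ± 0.12, SE, adjusted p = 0.020). It was the brightest of them. CG7720 (RH05973) was at −2.62 and −2.04 in dSETD3 KO, against −1.27 on both control arrays (adjusted p = 0.041). Its log2 change ranged from −1.35 to −0.76 over 15 other settings and missed an adjusted p under 0.05 in some. The other 2 probes of RH05973 were not well above background on any array. GH23506, GH04818, GH03275 and RH42808 had log2 changes of −1.15, −1.12, −1.08 and −1.12, with adjusted p between 0.017 and 0.034. Over 15 other settings these ranged from −1.245 to −0.70, −1.32 to −0.61, −1.16 to −0.40 and −1.19 to −0.53. Each missed an adjusted p under 0.05 in some of the settings. The second probe of RH42808 had −0.52 (adjusted p = 0.13).

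Some probes were seen in control alone. Well above background on both control arrays and on neither dSETD3 KO array were 7 head clone probes (2.20%), where 1.34% of all probes were, and the reverse held for 0, where 0.308% of all probes were. They were both probes of GH12056 and 1 probe each of GH05702, RH30043, RH30067, RH33996 and RH39068. All 7 passed the filter through control alone. All 7 were dim in control, with levels between −6.59 and −5.51, so the range left for a fall was small.

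GH12056 showed the pattern with both probes. A_09_P197020 was at −7.11 and −7.88 in dSETD3 KO, against −6.29 and −5.99 in control (adjusted p = 0.046). Its fall was 2.42-fold when each dSETD3 KO signal was taken as no lower than the dimmest signal well above background on its array. On the first dSETD3 KO array its signal exceeded that dimmest one without being well above background, so 2.42-fold is no strict lower bound. A_09_P207560 was at −7.21 and −6.99 in dSETD3 KO, against −6.31 and −5.79 in control, with a log2 change of −1.05 (adjusted p = 0.040). With normexp background correction the changes of these probes were 0.06 and 0.08, and their adjusted p was under 0.05 in 5 and 7 of 14 other settings. RH33996 had a log2 change of −1.15 at probe A_09_P213715 (adjusted p = 0.038), which became −0.08 with normexp and had an adjusted p under 0.05 in 5 of 14 other settings. Of its other probes 1 was at −0.60 (adjusted p = 0.10) and 1 was not detected on any array. The remaining 4 probes were not called. The log2 change was −1.02 for RH39068 (adjusted p = 0.098), −0.76 for RH30067 (adjusted p = 0.095), −0.55 for RH30043, whose genotypes overlapped (adjusted p = 0.29), and −0.44 for GH05702, a synonym of CG4757 (adjusted p = 0.15). The other probe of RH39068 had a log2 change of 0.08 and the other probes of RH30043 had −0.15 and −0.07, none of them called.

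RH05583 was the only clone whose probes were called in opposite directions. A_09_P166695 was at −5.26 and −4.55 in dSETD3 KO, against −6.45 and −7.03 in control, the lower of these not well above background. Its log2 change was 1.84 ± 0.32 (SE, adjusted p = 0.032), and it was the only head clone probe higher past both limits. It passed the filter through dSETD3 KO alone, and its change ranged from 0.68 to 2.19 over 14 other settings, with an adjusted p under 0.05 in 8. A_09_P182315 was at −4.41 and −4.36 in dSETD3 KO, against −3.68 and −3.51 in control, a log2 change of −0.79 ± 0.10 (SE, adjusted p = 0.021). Neither probe's genotypes overlapped, and no gene is paired with the clone. Of all tested probes, 39.4% had both dSETD3 KO arrays above both control arrays and 37.2% had them below. The other probes called higher, which changed by less than 2-fold, were those of GH05251 (log2 change 0.89 ± 0.14, SE, adjusted p = 0.028) and HL05382 (0.93 ± 0.09, SE, adjusted p = 0.017).

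Of the 238 clones, 175 had 1 probe and 63 had several, 50 with 2, 10 with 3, 2 with 4 and 1 with 5. Probes of a clone share their source and may overlap in sequence, so they are not replicates of the genotype. Of 33 clones with at least 2 tested probes, 22 had every change below 0, 5 had every change above 0 and 6 had both signs. The changes of a clone's probes lay a median of 0.23 apart, against a median SE of 0.14 for a single probe, and at most 2.62 apart, in RH05583. In 14 clones some probes passed the filter on dim signals and others did not. Of the 176 clones with a tested probe, 56 had at least 1 probe called lower and 3 at least 1 called higher. Counted as probes, 48.4% of all tested probes were below 0, 16.6% were called lower and 3.76% higher.

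The 3 clones with at least 4 probes differed in how alike their probes were. The 4 probes of GH06606 differed in mean level by 6.28 on the log2 scale, yet their changes were 0.76, 1.02, 0.74 and 0.76. For each, both dSETD3 KO arrays lay above both control arrays, as they did for 39.4% of all tested probes. None of the 4 was called, with adjusted p between 0.15 and 0.24, and in all 4 the second array of each genotype was above the first. The 5 probes of RH48407 had changes from −1.25 to −0.24, none called (adjusted p between 0.16 and 0.72), and in each the second dSETD3 KO array was the lowest of the 4. The 4 probes of GH14660 had changes of −1.17, 0.00, −0.37 and 0.11, none called, so they differed in sign. These clones were singled out after the values were seen.

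Gene names were available for a part of the clones. Of the 238 clones, 48 had their identifier among the synonyms of a RefSeq gene, 47 of them with 1 gene, and RH11383 with CanB and CG43347 both, so that it is left unnamed. The 47 genes comprise 43 protein-coding genes, 3 pseudogenes and 1 non-coding RNA, and they lie on all major chromosome arms. Their 60 probes gave 50 tests, with 19 called lower, 0 called higher and a median change of −0.27. The 168 tested probes of unnamed clones gave 42 called lower and a median of −0.37. Among all 21093 tested probes, 16.6% were called lower and 3.76% higher, and the median was 0.02. Which strand or isoform a probe reads is not known here, so a name says which gene the clone was assigned to.

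Genes of the mitochondrion, like the other groups by role a grouping made after the values were seen, were spread around 0. mRpL52 (RH01479) and mRpL14 (RH18819), proteins of the mitochondrial ribosome, had log2 changes of 0.12 and 0.25. ND-B17.2 (GH12382) and ND-B14.7 (RH51452), subunits of complex I, had −0.20 and −0.25. Tim17a2 (RH03914), a relative of a protein import subunit, Fdx1 (RH67819), a ferredoxin, and aralar1 (GH07418), a carrier of the inner membrane, had 0.27, 0.15 and 0.30. None of the 7 was called, and their adjusted p lay between 0.11 and 0.35.

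Several named genes of other kinds were lower by less than 2-fold. Mob2 (GH13236), a kinase adaptor of the Mob family, was lower at both of its probes, with log2 changes of −0.59 and −0.50 (adjusted p = 0.029 and 0.035). hwt (GH02424) was lower at both probes too, with −0.83 and −0.87 (adjusted p = 0.030 and 0.025). MESK2 (GH12032) had a change of −0.47 at each of its 2 probes, of which 1 was called (adjusted p = 0.038) and 1 was not (adjusted p = 0.067), so the call rested on the spread and not on the size. Gfrl (GH26447), a receptor-like gene whose probe end is printed above, had −0.80 (adjusted p = 0.038), and CHKov1 (GH03753), −0.52 (adjusted p = 0.046). CG33178 (RH14671), CG42784 (HL01958) and the pseudogene CR18166 (GH02584) were lower by −0.62, −0.79 and −0.56 on the log2 scale.

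For 2 further genes, probes outside the head clones gave other values than the clone. ptc (RH36596), which codes for Patched, the Hedgehog receptor, had a change of −0.01 at the head clone probe A_09_P160745 (adjusted p = 0.95), which is among the 5 smallest changes, and −0.78 at A_09_P197785 (adjusted p = 0.10), with the remaining probe not detected. Other probes named ptc had −0.74 and −1.46 and were called lower (adjusted p = 0.035 and 0.028). CG34417 (GH23906), whose probe ends in the longer run of A shown above, had −0.19 (adjusted p = 0.47) at the clone, while its other probes had −0.18, −2.51 and −1.21. The probes with −2.51 and −1.21 were called lower (adjusted p = 0.0050 and 0.015), and the probe with −1.21 has a name in the files because the study listed it as changed. Probes assigned to 1 gene thus differed in change by more than their errors.

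The brightest head clones did not differ by 2-fold. HL08087 was at 6.44 and 6.71 in dSETD3 KO against 6.69 and 6.42 in control at 1 probe, and at 6.30 and 6.63 against 6.33 and 6.26 in control at the other. RH01814, GH05567 and GH01508 followed, with mean levels of 5.76, 5.69 and 5.66 over the 4 arrays and log2 changes of −0.00, −0.14 and −0.18. None of these 5 probes was called, with adjusted p of at least 0.24. Apart from RH01814 and ptc, the smallest changes were those of 1 probe of GH14660 (0.00), RH08715 (0.01) and CG14715 (RH50927, −0.02).

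Probes near the threshold varied in size of change. Just inside an adjusted p of 0.05 were GH14618 (0.049), GH25761 (0.049) and a probe of HL03793 (0.048), with log2 changes of −0.66, −1.51 and −0.39. Just outside were a probe of RH44168 (0.052), HL01216 (0.055) and RH16194 (0.056), with −0.75, 0.40 and −0.57. Probes on either side of the threshold therefore overlapped in size of change.

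Markers of the cell types that a head holds, taken from probes with a gene name in the files, moved as follows. Of all tested probes, 16.6% were called lower and 3.76% higher. Of 34 photoreceptor genes listed, 8 had a named probe, with 13 probes, of which 9 were lower and 1 higher with a median log2 change of −1.03 (0.02 over all tested probes), but 6 of the 13 have names because the study listed them as changed. Their summed signal, in units of the 75th percentile of the array, was 8.07 and 8.49 in dSETD3 KO against 19.9 and 21.8 in control. Of the neuron list, 2 of 18 genes had a probe, brp and futsch, and both probes were lower, with sums of 0.0894 and 0.107 in dSETD3 KO against 0.151 and 0.159 in control. No glial gene had a named probe. The head fat body list had 6 probes for 5 of 8 genes (Obp99a, Yp1, Yp3, to and tsl), with 1 lower and 2 higher. Its sums were 120.1 and 121.6 in dSETD3 KO against 97.9 and 89.2 in control. Of the 6 probes, 3 have names because the study listed them as changed. The RNA is from whole flies, so these sums are not limited to fat body of the head.

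Markers of tissues outside the sensory organs moved as well. Over all tested probes the median change was 0.02, with 16.6% called lower and 3.76% higher. The muscle list had probes for 12 of 16 genes, and 28 of 33 tested probes were lower and 0 higher with a median of −1.14. Its summed signal was 177 and 173 in dSETD3 KO against 349.5 and 358 in control. Of its 35 probes, 18 have names because the study listed them as changed. The eggshell list, of vitelline membrane and chorion genes made in late egg chambers, had 11 probes for 7 of 15 genes. Of these probes 10 were higher with a median of 3.09, but 7 of the 11 have names because the study listed them as changed. Their sums were 197 and 219.6 in dSETD3 KO against 55.5 and 68.7 in control. The 4 probes of the germline genes vas and AGO3 (2 of 9 listed) were not called, though 0 of them were below 0 and their median was 0.265. Their sums were 15.29 and 14.75 in dSETD3 KO against 13.09 and 11.6 in control. Every marker gene with a named probe was well above background on at least 1 array, and the 2 betaTub85D probes of the testis list did not pass the filter. The part that these markers have in the lower values of the head clones was not tested.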

How the data were processed

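Per the labels, total RNA was labelled with Cy3 and hybridised to Agilent arrays, and Feature Extraction 10.7 is named in the submitters' processing notes. The authors deposited for each array the spot intensity after the software's background subtraction, without normalization between arrays, and a table of 1 intensity per probe that lies within 0.01 of the mean of the spots' median signals, with no background subtraction, for all 31962 probes with 1 or 2 spots. How probes were matched to genes is not given in the sources used here. The array annotation uses an older genome release than RefSeq, so no coordinates are printed.

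After removal of control spots and of outlier-flagged spots, a probe's level was its mean log2 signal minus the array's 75th percentile. The fit (limma 3.58.1 under R 4.3.3, with lmFit and eBayes) had a term for genotype alone and took in probes detected on every array of dSETD3 KO or of control, with p adjusted by Benjamini and Hochberg over 21093 probes. GH04968 had 1 probe with no value on 1 control array. Simulated data with known changes were used to test this fit. Tables used Python 3.11.15, pandas 2.3.3 and numpy 2.4.6. The small number of arrays, 2 for each genotype, limits the precision.

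The head clone probes, marker lists and rules were chosen with earlier results of these data known. Named probes are the up to 10 largest rises and falls past 2-fold at an adjusted p under 0.05, those detected in 1 genotype only, the 5 brightest, the 5 smallest changes, other probes of these clones and the 3 on each side of the threshold, and CG32732. Clones were named through RefSeq synonyms (GCF_000001215.4), and other probes through names in the study's probe lists or RefSeq accessions. Student's t test, which the study's methods name, was an alternative.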

Additional observations from a re-analysis of the deposited data

How the results depend on the processing

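The count of 20 head clone probes at least 2-fold changed at an adjusted p under 0.05 became 8 with quantile normalization, 7 with cyclic loess, 3 with normexp, 4 with the authors' table, 1 without a filter on dim probes and 9 with the replicate number as a block. Without the 2-fold limit 64 passed. The counts did not move by over 1.5 times with median scaling (16), with probes detected on all 4 arrays (14), with outlier spots kept (20), with 1 probe per clone (15, chosen after seeing the data) or at an unadjusted p (22). The methods' t-test called 0 after adjustment, with 51 lower and 11 higher at an unadjusted p under 0.05. Leaving out each replicate gave 0 to 29 calls, 0 without either control array. Calls shared with the 20 were 6 of the 8 with quantile normalization, 5 of the 7 with cyclic loess, 10 of the 16 with median scaling and all of the 3 with normexp, the 4 with the authors' table and the 9 with the block.

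The median change of −0.34 became −0.177 with quantile normalization, −0.0331 with median scaling, −0.203 with cyclic loess, −0.0774 with normexp, −0.17 with the authors' table and −0.20 without the filter, and lay between −0.46 and −0.25 when 1 replicate was left out. Among the called probes the direction turned for the 2 of GH12056, with normexp (0.0611 and 0.0790), which are dim in control and not detected in dSETD3 KO. The cause of these shifts was not tested. Of all probes past both limits 22.9% were higher, against 56.4% with median scaling, 40.9% with quantile normalization and 41.1% with cyclic loess.

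Same-numbered samples did not deviate together (correlation −0.21). With 2 arrays per genotype the deviations mirror each other, so this single value cannot decide whether the numbers pair the samples. A crossed block, added after seeing the data, called 14. Among named probes, 127 of the results for called probes under the alternatives missed the threshold and 120 did not, and 17 for probes not called passed it. Detection counted 197 probes in dSETD3 KO and 215 in control, and 247 and 253 under the scanner's looser flag. Head clone signals near the dimmest one well above background (5.62 to 7.42) limit how far a fall can be measured.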
